A study of Mus musculus with 16 samples.

Results

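The genes described here are 10 chemokine genes measured in the regenerating mouse liver: Cxcl1, Cxcl2, Cxcl9, Cxcl10, Cxcl12, Cxcl13, Cxcl14, Ccl2, Ccl5 and Ccl6. They were taken by symbol from 18193 genes with a probe set of their own on the array, and 18 probe sets named a member alone. The probe set with the highest mean log2 signal over the 16 arrays stood for its gene, and 6 members had more than 1 to choose from. All 10 were among the 13575 genes that passed a filter on low signals and were tested.

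The study asked how the liver grows back after partial hepatectomy, the removal of part of it, with MET deleted, with EGFR inhibited, with both and with neither. Whole liver RNA was hybridised to 16 arrays, 1 for each of 4 arms at days 0, 2, 7 and 14. Every array carries the genotype label Metff/ff:ERCre+/+ and the strain background 129SV/C57BL/6, so the floxed Met alleles and the Cre transgene are shared by all arms. MET_KO mice had lost exon 16 of Met through a tamoxifen-inducible system, and MET_FLOX mice are the arm without the deletion. MET_FLOX_canertinib and MET_KO_canertinib mice were fed canertinib, which inhibits EGFR and its relatives, at an aimed dose of 80 mg/kg. The promoter of the Cre transgene, the tamoxifen treatment of MET_FLOX mice, the age and sex of the animals, and whether an array holds 1 animal or a pool are not given in the sources used here. With a single array for an arm at a day, p-values measure the spread that arm and day leave over, which counts an arm's own time course as error.

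Chemokines are small secreted proteins that bind to G protein-coupled receptors and guide leukocytes along a gradient. CXCL1 and CXCL2 draw neutrophils through CXCR2, CXCL9 and CXCL10 draw activated T cells and NK cells through CXCR3, CXCL12 acts through CXCR4, and CXCL13 draws B cells through CXCR5. CCL2 draws monocytes through CCR2, CCL5 draws T cells and monocytes, and CCL6 acts through CCR1. In liver, hepatocytes, Kupffer cells, stellate cells and endothelium make them, many in response to cytokines that act through NF-kappa-B or through interferon receptors.

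The values are MAS5 signals on a linear scale, and differences are given on the log2 scale of the signal plus 16, where a difference of 1 is a 2-fold change at signals well above 16. The arrays fell into 2 sets that no label names. Array medians were 156.4 to 188.7 in a low set of 6 arrays, MET_FLOX and MET_KO at days 0, 2 and 7, and 244 to 265.1 in a high set of the other 10. The ratio of the 3 prime to the 5 prime Gapdh control probe set, a sign of RNA or labelling quality, lay at 0.950 to 2.24 in arrays with canertinib and at 0.765 to 0.869 without it. Canertinib and the array set cannot be told apart at days 0, 2 and 7. At day 14 all 4 arrays lie in the high set, and once the array set enters the fit a canertinib difference equals that of day 14 alone. The Gapdh ratio still differed at day 14, at 1.13 to 2.24 with canertinib and 0.811 on both arrays without it. MET_FLOX_canertinib at day 14 had the highest ratio of all arrays, 2.24. Canertinib and this ratio cannot be told apart at day 14 either. All 9 hepatocyte markers lay above the array median on all 16 arrays. Met signals overlapped between genotypes, with 1 probe set at 982 to 1422 in MET_KO_canertinib and 1118 to 2014 in MET_FLOX_canertinib, but the position of the Met probe sets relative to exon 16 is unknown here, and they cannot serve as a check of the deletion.

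Upstream sequence was found in RefSeq's promoter table (build GRCm38.p6) for 8 of the 10 members, all except Ccl2 and Ccl5. Members on chromosome 5 number 5 (Cxcl1, Cxcl2, Cxcl9, Cxcl10 and Cxcl13), and Cxcl1 and Cxcl2 are next to each other there among the coding genes. Both strands of the 250 bases before each start were searched for GGG, any 3 bases and TTCC, a form of the site that NF-kappa-B binds. Of the 8 windows searched, 3 held it, those of Cxcl1, Cxcl2 and Cxcl10, against 4.65% of all 32851 promoters of the table. These 3 windows are shown because they hold this form, and its part in the signals of these genes was not tested. Capitals mark the matches to this form on either strand, and each window is 5′ to 3′ in the direction of the gene: chr5:90890995-90891244 on the plus strand for Cxcl1, chr5:90903649-90903898 on the plus strand for Cxcl2 and chr5:92348890-92349139 on the minus strand for Cxcl10.
Cxcl1: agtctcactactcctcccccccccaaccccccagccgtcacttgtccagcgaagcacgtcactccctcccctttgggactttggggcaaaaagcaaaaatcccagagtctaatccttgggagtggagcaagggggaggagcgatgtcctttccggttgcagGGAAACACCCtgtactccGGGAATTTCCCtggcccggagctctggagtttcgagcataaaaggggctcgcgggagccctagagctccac
Cxcl2: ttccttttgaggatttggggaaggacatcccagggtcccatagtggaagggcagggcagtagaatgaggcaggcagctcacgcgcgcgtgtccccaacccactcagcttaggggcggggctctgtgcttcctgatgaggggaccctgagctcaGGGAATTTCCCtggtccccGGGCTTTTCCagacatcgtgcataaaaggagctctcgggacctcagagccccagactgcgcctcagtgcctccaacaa
Cxcl10: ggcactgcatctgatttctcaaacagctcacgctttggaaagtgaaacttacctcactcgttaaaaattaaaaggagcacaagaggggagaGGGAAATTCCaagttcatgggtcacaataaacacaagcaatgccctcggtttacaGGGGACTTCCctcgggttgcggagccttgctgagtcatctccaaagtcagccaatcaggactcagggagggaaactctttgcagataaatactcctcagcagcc

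The Cxcl1 and Cxcl2 windows shared the letters GGGAATTTCC, beginning 71 bases before the start in Cxcl1 and 97 bases before it in Cxcl2, and in both a match on the other strand overlapped it. Cxcl1 held a further match on the other strand 89 bases before the start, and Cxcl2 a further match, GGGCTTTTCC, 78 bases before it. Cxcl10 held GGGAAATTCC at 159 bases and GGGGACTTCC at 104 bases before the start. The letters GAAA, any 2 bases and GAAA, a form of the interferon-stimulated response element, were found in the windows of Cxcl10 (213 bases before the start) and Cxcl14 (172 bases) and in 2.98% of all promoters. The letters TTC, any 3 bases and GAA, a form of the STAT-binding GAS element, were found in that of Cxcl14 and in 7.02% of all promoters. A match describes letters in this window and is not a measured binding site.

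Over the 16 arrays Cxcl2 spanned a 36.6-fold range of signal, Cxcl9 a 51.4-fold range and Cxcl10 a 31.8-fold range, while Cxcl12, the ligand that stellate cells and endothelium make without a stimulus, spanned a 2.16-fold range. The lowest signals of Cxcl9 and Cxcl10, 25.1 and 24.1, lay far below the array medians. The ranges of the probe sets that stood for the other members were 15.03-fold for Cxcl13, 13.2-fold for Ccl6, 11.4-fold for Cxcl14, 9.97-fold for Ccl5, 7.45-fold for Cxcl1 and 5.23-fold for Ccl2. This order depends on the probe set, since others of the same genes spanned 306-fold for Cxcl14, 185-fold for Cxcl13, 116-fold for Ccl6, 53.2-fold for Cxcl1 and 15.9-fold for Cxcl12. The MET_KO_canertinib array of day 14 held the highest signal of Cxcl2, Cxcl14 and Ccl6 and a Cxcl1 signal of 10811, next to the highest, 10828.

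**Figure D1:**
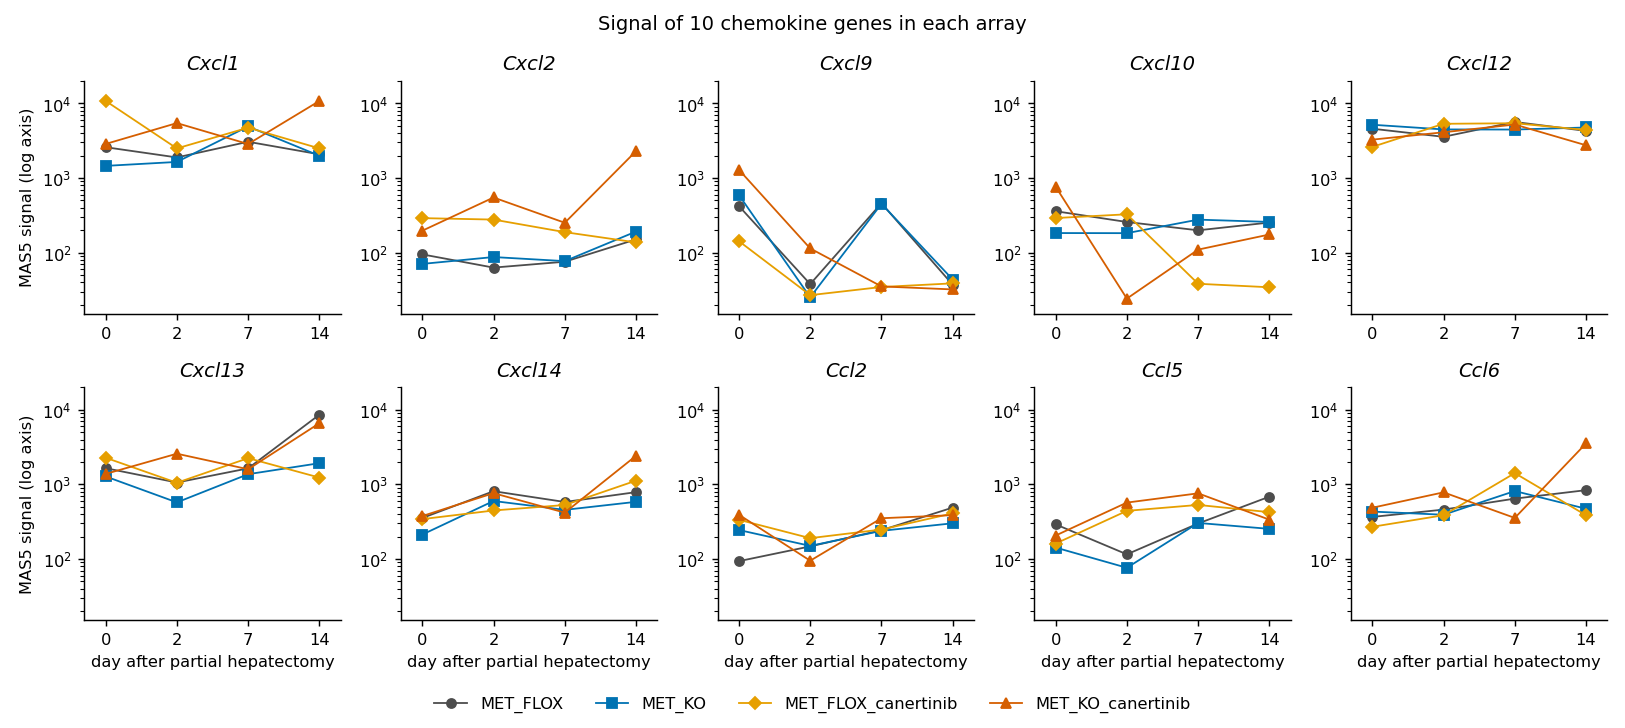
MAS5 signal (log axis) of the probe set that stands for each of the 10 chemokine genes, by day after partial hepatectomy, with 1 point for each array and a line for each of the 4 arms. Cxcl2 ended at 2299 in MET_KO_canertinib at day 14, Cxcl9 lay at 43.4 or less in all arms at day 14, and Cxcl12 stayed between 2614 and 5648.

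The comparison of the canertinib arms with the arms without it asks what EGFR inhibition changes over the whole course. Cxcl2 and Cxcl1, the members that act through the neutrophil receptor CXCR2, were higher with canertinib, and no other member was called. Called means a Benjamini-Hochberg adjusted p below 0.05 over all 13575 genes in limma. The 2 of 10 members called higher stand against a background of 24% of all genes tested, so the count does not set the members apart.

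In MET_FLOX the Cxcl2 signal was 94.5, 62.8, 75.3 and 150 at days 0, 2, 7 and 14. In MET_KO it gave 70.4, 87.0, 76.7 and 191. All 8 of these signals lay below the median of their own array. With canertinib it gave 290, 277, 188 and 137 in MET_FLOX_canertinib. In MET_KO_canertinib it gave 196, 548, 251 and 2299. The canertinib arrays were higher at days 0, 2 and 7 in both genotypes, where the array sets differ as well. At day 14 the MET_FLOX_canertinib array lay below both arrays without the drug. Among arrays without the drug, Cxcl2 was 62.8 to 94.5 in the low set and 150 and 191 in the high set. The 5 arrays that carried Cxcl2 through the filter were all canertinib arrays, and without the filter it was called as well.

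On the log2 scale Cxcl2 was higher by 1.64 (SE 0.38, adjusted p = 0.0070 in limma, 8 arrays against 8), with a positive difference at 4 of 4 days. The differences at days 0, 2, 7 and 14 were 1.38, 2.17, 1.34 and 1.68. With the array set in the fit the estimate was 1.68 (SE 0.77, adjusted p = 0.390), and 0 members were called among the 0.11% of genes called that way in either direction (limma), where 1706 genes had an unadjusted p under 0.05. The day 14 value was 3.48 between the MET_KO_canertinib and MET_KO arrays and -0.12 between the MET_FLOX_canertinib and MET_FLOX arrays. Without the MET_KO_canertinib array of day 14 the difference over all days was 1.34 (adjusted p = 0.0079).

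Cxcl1, the other member that acts through CXCR2, gave 2590, 1887, 3063 and 2078 in MET_FLOX at days 0, 2, 7 and 14. In MET_KO it gave 1454, 1643, 4913 and 1988. The highest of these 8 signals was that of MET_KO at day 7. In MET_FLOX_canertinib it gave 10828, 2494, 4734 and 2496. In MET_KO_canertinib it gave 2862, 5455, 2857 and 10811. The ranges with and without canertinib overlapped, and the 2 highest signals came from different arms and days, MET_FLOX_canertinib at day 0 and MET_KO_canertinib at day 14.

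Cxcl1 was higher with canertinib by 0.96 (SE 0.36, adjusted p = 0.0497 in limma), with a positive difference at 3 of 4 days. This call lies at the threshold and was kept in 2 of 9 alternative settings and in 4 of 16 fits without 1 array, with adjusted p from 0.0338 to 0.490 over the settings and from 0.0247 to 0.110 over the fits without 1 array. The other Cxcl1 probe sets moved with the same arrays over a wider range, 356 to 18919 and 964 to 15276. With every probe set tested on its own, their canertinib differences were 1.69 (SE 0.67, adjusted p = 0.0637) and 1.22 (SE 0.52, adjusted p = 0.0827).

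**Figure D2:**
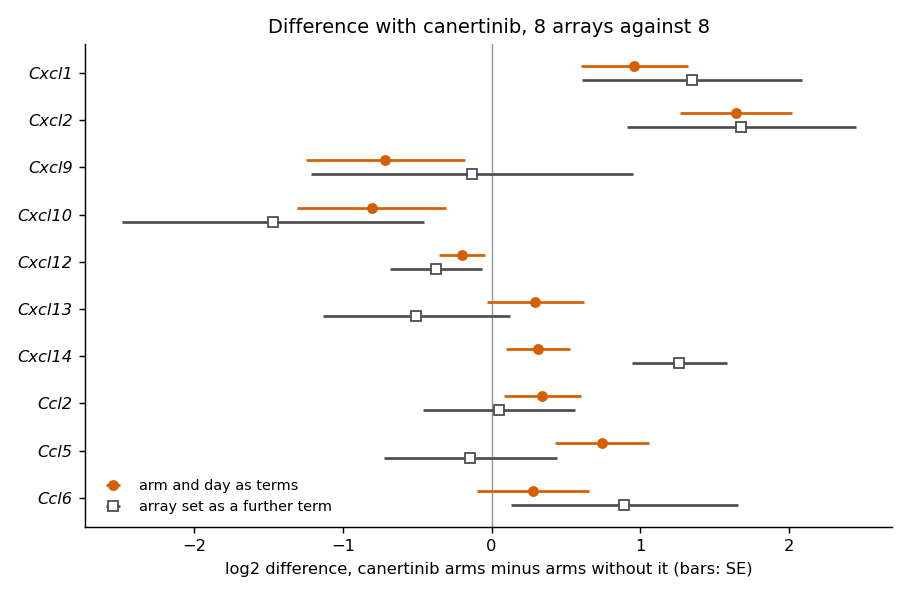
Log2 difference, canertinib arms minus arms without the drug, for each of the 10 chemokine genes, with SE bars, fitted with arm and day as terms (filled circles) and with the array set as a further term (open squares). Cxcl2 stood at 1.64 and 1.68, and its SE grew from 0.38 to 0.77 with the array set.

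The other 8 members were not called, with estimates from -0.81 for Cxcl10 to 0.74 for Ccl5 (SE 0.32, adjusted p = 0.0792). Over the 10 members the median difference was 0.30, against 0.14 for all genes tested. Of all genes called in this comparison 69.3% were higher as deposited, 18.5% with arrays centred on their medians and 58.2% after quantile normalization, and the median of all genes was -0.24 when centred and 0.06 after quantile normalization. Cxcl2 stayed higher under these scalings, by 1.26 and 1.34 (adjusted p = 0.0168 and 0.0319). Cxcl1 lost its call when centred, at 0.58 (adjusted p = 0.220), and kept it after quantile normalization, at 1.17 (adjusted p = 0.0338). Cxcl12 differed by -0.20 as deposited (adjusted p = 0.328), by -0.58 when centred (adjusted p = 0.0124, called) and by 0.07 after quantile normalization, so its direction rests on the scaling. Another of its probe sets, at signals of 43.7 to 696, was higher by 1.28 (SE 0.40, adjusted p = 0.0239) in the fit of every probe set on its own, while the remaining one differed by -0.15.

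Ccl5, a ligand for T cells and monocytes, gave 292, 115, 299 and 686 in MET_FLOX at days 0, 2, 7 and 14. In MET_KO it gave 142, 76.2, 304 and 254. In MET_FLOX_canertinib it gave 161, 442, 531 and 425, and in MET_KO_canertinib 206, 571, 760 and 337. The canertinib arrays lay above the others at days 2 and 7, where the array sets differ as well, and the mean differences at days 0 and 14 were -0.15 and -0.14. Ccl5 was called higher with canertinib when the MET_KO_canertinib array of day 14 was left out (0.90, adjusted p = 0.0352) and when the MET_FLOX array of day 14 was left out (0.92, adjusted p = 0.0367).

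By arm, the mean log2 level of Cxcl2 was 6.74 ± 0.47 (SD, n = 4 days) in MET_FLOX and 6.84 ± 0.58 in MET_KO. It was 7.84 ± 0.47 in MET_FLOX_canertinib and 9.03 ± 1.55 in MET_KO_canertinib. In this order MET_KO and MET_FLOX differed by 0.09 (SE 0.53), and MET_KO_canertinib and MET_FLOX_canertinib by 1.18 (SE 0.53, adjusted p = 0.9996), and limma called neither difference. Between MET_KO_canertinib and MET_KO, Cxcl2 was higher by 2.19 (SE 0.53, adjusted p = 0.0343) at 4 of 4 days, and it was the only 1 of 10 members called against 5.84% of all genes called higher. Between MET_KO_canertinib and MET_FLOX, which differ in both receptors, Cxcl2 was higher by 2.28 (SE 0.53, adjusted p = 0.0413) at 4 of 4 days, against 1.73% of all genes called higher. With the array set in the fit these were 2.22 (adjusted p = 0.316) and 2.32 (adjusted p = 0.301). The first call held in 11 and the second in 4 of 16 fits without 1 array, and without the MET_KO_canertinib array of day 14 they were 1.57 (adjusted p = 0.0473) and 1.67 (adjusted p = 0.0508).

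Between MET_FLOX_canertinib and MET_FLOX no member was called by limma and 0 had an unadjusted p under 0.05. Of all genes 6.71% were called and 4120 had an unadjusted p that low. Cxcl2 differed by 1.10 (SE 0.53, adjusted p = 0.177) in that pair. Without the MET_FLOX_canertinib array of day 14 it was called, at 1.70 (adjusted p = 0.0310). These pairs share their arms, so they are values side by side and not separate tests of Cxcl2.

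The comparisons of genotypes ask what the loss of Met changes. No member was called by limma between the knockout and flox arms (0 members and 322 of all genes with an unadjusted p under 0.05, 0% of all genes called), nor between MET_KO and MET_FLOX (0 members and 350 genes unadjusted, 0% called). Between MET_KO_canertinib and MET_FLOX_canertinib the counts were 0 members called, 1 member and 606 genes unadjusted, and 0.00737% of all genes called. The genotype by canertinib interaction called 0 members and 0.0147% of all genes, with 1 member, Cxcl13, and 601 genes unadjusted. The members' differences between knockout and flox arms ran from -0.24 for Ccl5 (SE 0.32) to 0.64 for Cxcl2 (SE 0.38).

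Cxcl13, the B cell chemokine, gave 1654, 1061, 1644 and 8634 in MET_FLOX at days 0, 2, 7 and 14. In MET_KO it gave 1281, 574, 1373 and 1929. In MET_FLOX_canertinib it gave 2283, 1053, 2252 and 1236, and in MET_KO_canertinib 1384, 2585, 1599 and 6634. The 2 highest arrays were those of day 14 in MET_FLOX and MET_KO_canertinib, the arms with neither and with both receptors targeted, and the second probe set was highest in the same arrays, at 14165 and 9959. The interaction estimate was 1.53 (SE 0.65, adjusted p = 0.99996, unadjusted p = 0.0326), and it rests on single arrays.

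Neutrophil markers were tested as genes of the cells that CXCR2 ligands draw. Of 9 neutrophil marker genes tested, 6 were higher with canertinib and 0 lower, against 24% of all genes called higher. The median difference of the 9 was 0.83, against 0.14 for all genes. Ngp, a granule gene of immature neutrophils, differed by 1.20 (SE 0.22, adjusted p = 0.0032), Mpo, myeloperoxidase, by 0.96 (SE 0.20, adjusted p = 0.0050), Ltf, lactoferrin, by 0.97 (SE 0.26, adjusted p = 0.0132), and S100a8, a subunit of calprotectin, by 1.52 (SE 0.55, adjusted p = 0.0456). The summed signal of the 9 was 4644 to 47644 in canertinib arrays and 2653 to 7214 in the others. Without canertinib it was 2653 to 5112 in the low set and 6427 and 7214 in the high set. These 2 high-set sums lay within the range of the canertinib arrays. The highest sums were those of MET_KO_canertinib at day 14 (47644) and at day 2 (14244), which were also the arrays with the highest Cxcl2 signals, 2299 and 548. The other arrays did not share this order: MET_FLOX_canertinib at days 0 and 2 had Cxcl2 signals of 290 and 277 with sums of 5248 and 4801, and the same arm at day 14 had 137 with a sum of 7764. MET_FLOX_canertinib at day 0 also had a Cxcl1 signal of 10828 with a neutrophil sum of 5248. With the array set in the fit 0 of the 9 were called, and centred arrays left 2 of 9 called higher, with a median of 0.45 against -0.24. In whole liver, more cells of a type and more RNA per cell cannot be told apart, and the part of the neutrophil markers in the Cxcl2 result was not tested.

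**Figure D3:**
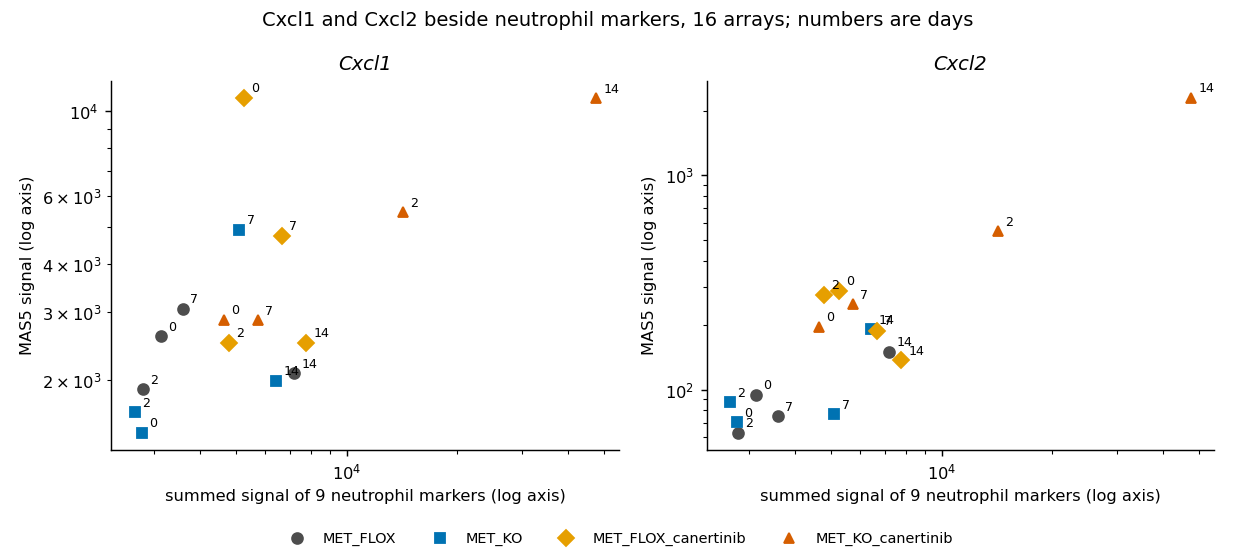
MAS5 signal of Cxcl1 and Cxcl2 against the summed signal of 9 neutrophil marker genes in the 16 arrays (both axes log), with the arm as symbol and the day as number. MET_KO_canertinib at days 14 and 2 had the highest neutrophil sums, 47644 and 14244, and the highest Cxcl2 signals, while MET_FLOX_canertinib at day 0 reached a Cxcl1 signal of 10828 at a neutrophil sum of 5248.

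Markers of other leukocytes and of other liver cells were compared in the same way, with no test between lists. For the higher counts as deposited the background is 24% of all genes called higher, and 6354 of all 13575 genes had an unadjusted p under 0.05. No share of all genes stands beside the lower counts or the counts under other scalings, here or in the other lists. Those counts therefore do not set a list apart. With arrays centred most of the genes called were lower, and the median of all genes was -0.24. Of 10 macrophage and Kupffer cell markers 0 were called by limma and 0 had an unadjusted p under 0.05, with a median of -0.14 as deposited and -0.52 when centred, where 4 were called lower. B cell markers were higher in 5 of 6 genes as deposited (median 0.97), 4 of 6 when centred and 5 of 6 after quantile normalization, among them Cr2 (1.15) and Ms4a1 (1.11). With the array set in the fit the differences of the 6 ran only from -0.19 to 0.21. Their summed signal was 3833 to 4948 with canertinib. Without it the sum was 1348 to 2561 in the low set and 3911 and 4470 in the high set. T and NK cell markers were higher in 4 of 7 (2 of 7 when centred), led by Nkg7 (1.40) and Ncr1 (1.10), while Gzmb, granzyme B, was lower by -0.94 (adjusted p = 0.0434). Stellate cell and fibroblast markers were higher in 1 (Acta2, 0.50) and lower in 2 of 11 (Ngfr, -0.96, and Col3a1, -0.76), and when centred in 0 and 4 of 11. Of 9 endothelial genes 1 was higher as deposited (Lyve1, 0.57; list median -0.21), while 0 were higher and 6 lower when centred (median -0.59) and 0 higher and 2 lower after quantile normalization. Higher calls were also made in 3 of 3 mesothelial genes (Upk1b, 1.08, Upk3b, 0.99, and Msln, 0.91), 1 of 1 adipocyte gene (Retn, 1.09) and 4 of 9 hepatocyte genes, led by Alb (1.23), with Pck1 lower (-0.51). When centred these were 1 of 3, 1 of 1 and 2 of 9, with 2 hepatocyte genes lower. Of 4 pancreatic acinar genes Cel was higher (1.06) and Cela1 lower (-0.63). None of these markers was called with the array set in the fit, and their part in the chemokine results was not tested.

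Of the other chemokine genes, the filter kept 8 of 10 further CXC, CX3C and XC ligands and 9 of the 15 further CC ligands that had a probe set, out of 17 listed. In the first list 4 of 8 were higher with canertinib, with a median of 0.49: Xcl1 (1.14), the fractalkine gene Cx3cl1 (0.96), Cxcl17 (0.91) and Cxcl16 (0.59). In the second 5 of 9 were higher, with a median of 0.68, among them the T cell attractants Ccl17 (1.66, SE 0.28, adjusted p = 0.0023) and Ccl1 (1.56, SE 0.27, adjusted p = 0.0028), Ccl8 (0.75) and Ccl28 (0.72). None was called lower, and the 24% background holds for these lists too. When each array was centred the counts became 1 higher and 1 lower of 8, and 3 higher and 2 lower of 9. With the array set in the fit none of them was called, and Ccl17 differed by 0.85 (adjusted p = 0.520) and Ccl1 by 0.49 (adjusted p = 0.694).

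Among the receptors of the members, Cxcr5, the CXCL13 receptor of B cells, ranged from 103 to 482 over the arrays and was higher with canertinib by 1.004 (SE 0.21, adjusted p = 0.0045, 4 of 4 days), or by 0.39 with the array set in the fit (adjusted p = 0.705). Cxcr3, the receptor of CXCL9 and CXCL10, ranged from 278 to 680 and Ccr1 from 56 to 431 on the probe sets that stood for them. Ccr2, the CCL2 receptor, ranged from 109 to 453. Cxcr2, the receptor of CXCL1 and CXCL2, lay between 53 and 199 and was below the array median on all 16 arrays, as was Cxcr4 at 53 to 198. These 2 receptors therefore failed the filter and were not tested. Of the 12 receptors tested 5 were higher with canertinib and 0 lower (median 0.53, or 0.15 when centred). The background is 24% of all genes called higher. Ccr8 (1.75), Xcr1 (1.34) and Ccr6 (0.83) were called beside Cxcr5.

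Of 22 genes of inducing cytokines, their receptors and NF-kappa-B, 9 were higher with canertinib and 0 lower (median 0.41), and 1 of 22 when each array was centred. For this list and the interferon list below, the background is 24% of all genes called higher as deposited. Nfkb2, an NF-kappa-B subunit that is itself a target of the pathway, was higher by 1.57 (SE 0.29, adjusted p = 0.0032), Cd14, the endotoxin coreceptor, by 1.25 (SE 0.39, adjusted p = 0.0250), the cytokine gene Lta by 1.02 (SE 0.38, adjusted p = 0.0492) and Il1b, interleukin-1 beta, by 0.70 (SE 0.25, adjusted p = 0.0419). Between MET_KO_canertinib and MET_KO 4 of these 22 were called higher, Cd14 (2.005), Nfkb2 (1.73), Il1b (1.21) and Nfkbia (0.88), against 5.84% of all genes, and 1 of 22 when centred or after quantile normalization. The neutrophil list had 3 of 9 higher in that pair, the further CXC list 2 of 8 and the further CC list 4 of 9. These became 2, 0 and 1 when centred and 1, 0 and 0 when quantile normalized. Adding the array set left no call in these 4 lists for the pair. The interferon list had 2 of 19 higher (Socs1, 1.31, and Mx1, 0.65) and 2 lower (Irf9, -0.56, and Stat2, -0.42) with canertinib, 1 higher and 4 lower when centred, and 1 higher and 2 lower when quantile normalized. Adding the array set left no call in this list.

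The comparison of days with day 0 asks how the liver's chemokine transcripts move as it grows back. Cxcl9 was lower at days 2 and 14 in all 4 arms, and Cxcl14 was higher at all later days in all 4 arms. The share of all genes with such a course, or with no overlap between days, was not counted. These courses therefore do not set the genes apart. Without canertinib, day 14 lies in another array set than days 0, 2 and 7. Limma called 0 members at day 2, 0 at day 7 and 0 at day 14, where 0.383%, 0.00737% and 0.081% of all genes were called. At an unadjusted p under 0.05 in limma there were 2, 2 and 5 members, beside 1425, 662 and 2239 of all 13575 genes.

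Cxcl9, an interferon gamma target, gave 420, 37.7, 459 and 36.9 in MET_FLOX at days 0, 2, 7 and 14. In MET_KO it gave 590.5, 25.1, 451 and 43.4. These 2 arms followed the same course, high at days 0 and 7 and low at days 2 and 14. In MET_FLOX_canertinib it gave 142, 26.8, 34.5 and 38.6, and in MET_KO_canertinib 1289, 113.5, 35.1 and 32.0. The canertinib arms did not return to their day 0 signal at day 7. The signals of day 0 (142 to 1289) did not overlap those of day 2 (25.1 to 113.5) or day 14 (32.0 to 43.4).

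From day 0 Cxcl9 differed by -3.03 at day 2 (SE 0.76, adjusted p = 0.144), by -1.64 at day 7 (SE 0.76, adjusted p = 0.987) and by -3.17 at day 14 (SE 0.76, adjusted p = 0.114). The sign was negative in 4 of 4, 3 of 4 and 4 of 4 arms. Its signals at days 2 and 14 lie below the array medians, and there the added 16 makes the log2 differences smaller. The 5 arrays that carried Cxcl9 through the filter were all of days 0 and 7. The filter thus admitted Cxcl9 only through days at which it was high. At day 7 the canertinib difference of Cxcl9 was -3.21, from 451 and 459 to 35.1 and 34.5. The 2 arms with canertinib lay in the other array set, and at that day only the arrays without canertinib carried Cxcl9 through the filter. The share of all genes that part in this way at day 7 was not counted.

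Of 19 interferon response genes 0 were called by limma in the comparison of day 2 with day 0. Of the 19, 6 had an unadjusted p under 0.05, as had 1425 of all 13575 genes. The median difference of the 19 was -0.69 at day 2 and -0.49 at day 14, against -0.06 and 0.10 for all genes. Their summed signal was 18534 to 40538 at day 0, 10260 to 21816 at day 2, 14402 to 29600 at day 7 and 13845 to 20705 at day 14. The highest sum was that of MET_KO_canertinib at day 0, the array with the highest Cxcl9 and Cxcl10 signals.

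Cxcl10, the other member that acts through CXCR3, gave 359, 257, 199 and 253 in MET_FLOX at days 0, 2, 7 and 14. In MET_KO it gave 183, 182, 276 and 258. In MET_FLOX_canertinib it gave 290, 326, 38.1 and 34.2. In MET_KO_canertinib it gave 766, 24.1, 109.5 and 175. Without canertinib the signal stayed within 182 to 359, and with it the arrays spread from 24.1 to 766, with the lowest at a different day in each arm. Cxcl10 was not called at any day, with -1.15 at day 2 (SE 0.71, adjusted p = 0.627) and -1.17 at day 14 (SE 0.71, adjusted p = 0.402).

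Cxcl14, a chemokine expressed by epithelia and hepatocytes, gave 354, 812, 582 and 789 in MET_FLOX at days 0, 2, 7 and 14. In MET_KO it gave 212.5, 600, 456 and 584.5. In MET_FLOX_canertinib it gave 342.5, 447, 529.5 and 1125, and in MET_KO_canertinib 377, 764, 418 and 2425. In every arm day 0 was the lowest, and the day 0 signals (212.5 to 377) did not overlap those of day 2, day 7 or day 14 in any arm.

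Cxcl14 was higher at day 14 by 1.70 (SE 0.31, adjusted p = 0.0667, 4 of 4 arms), which missed the threshold. With the array set in the fit the estimate was 2.34 (SE 0.29, adjusted p = 0.0089), the only 1 of 10 members called higher there, against 0.0442% of all genes called higher. In the arms without canertinib, only the day 14 arrays lie in the high set. That fit therefore takes the step from days 0, 2 and 7 together to day 14 from the arms with canertinib alone. The place of day 0 among days 0, 2 and 7 is still taken from all 4 arms. Among the day 14 arrays with canertinib is that of MET_KO_canertinib, which held the highest Cxcl14 signal. Cxcl14 was also called without the MET_KO_canertinib array of day 7 (adjusted p = 0.0403) and without the MET_FLOX_canertinib array of day 14 (adjusted p = 0.0436). At days 2 and 7 the differences were 0.99 (SE 0.31, adjusted p = 0.234) and 0.62 (SE 0.31, adjusted p = 0.987), each positive in 4 of 4 arms. The second Cxcl14 probe set went from 14 to 329.6 in MET_FLOX and from 15.9 to 4280 in MET_KO_canertinib between days 0 and 14. Its day 14 difference was 3.87 (SE 0.91, adjusted p = 0.120) in the fit of every probe set.

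The other members had no common course. Ccl2, the monocyte chemokine, was lowest at 93.5 in MET_FLOX at day 0 and highest at 489 in the same arm at day 14, and its day 14 signals (301 to 489) lay above all its day 2 signals (94.8 to 190). Ccl5 was higher than at day 0 in 4 of 4 arms at day 7, by 1.12 (SE 0.45, adjusted p = 0.987), and at day 14, by 0.99 (SE 0.45, adjusted p = 0.293). Ccl6, expressed by macrophages and neutrophils, was higher at day 14 in 4 of 4 arms by 1.15 (SE 0.53, adjusted p = 0.300), with 3559 in MET_KO_canertinib and 386 to 838 in the other arms. Cxcl13 was higher at day 14 by 1.08 (SE 0.46, adjusted p = 0.270) in 3 of 4 arms, and Cxcl12 differed by 0.07 (SE 0.22).

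**Figure D4:**
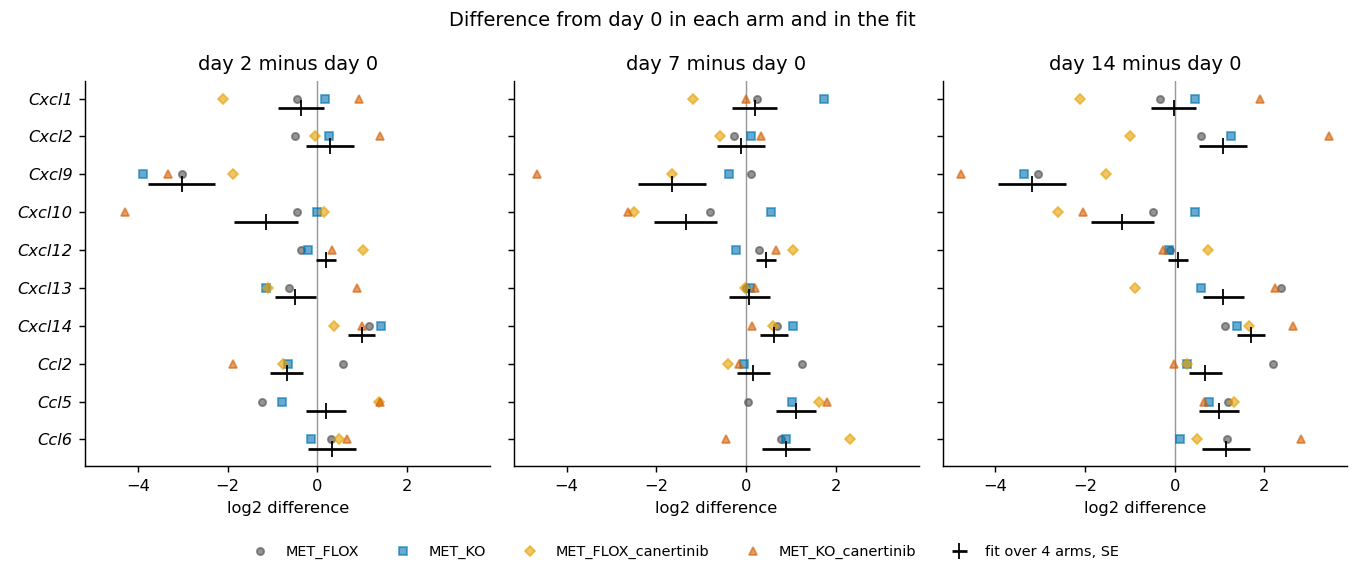
Log2 difference from day 0 at days 2, 7 and 14 for the 10 chemokine genes, with 1 symbol for each arm and a black bar for the fit over the 4 arms with its SE. Cxcl9 lies left of 0 in all arms at days 2 and 14, with fits of -3.03 and -3.17, and Cxcl14 lies right of 0 in all arms at all 3 days, with a fit of 1.70 at day 14.

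Within an arm, day 2 and day 0 were compared as 1 array against 1, with no test, by a 2-fold change on the log2 scale. Cxcl14 passed it upward in MET_FLOX and in MET_KO, 1 of 10 members each, against 4.97% and 7.25% of all genes. In MET_FLOX_canertinib Cxcl12 and Ccl5 passed it upward (6.64% of all genes), and in MET_KO_canertinib Cxcl2 and Ccl5 did (4.69%). Downward changes past 2-fold were those of Cxcl9 and Ccl5 in MET_FLOX (7.42% of all genes) and of Cxcl9 and Cxcl13 in MET_KO (7.4%). With canertinib they were those of Cxcl1, Cxcl9 and Cxcl13 in MET_FLOX_canertinib (5.9%) and of Cxcl9, Cxcl10 and Ccl2 in MET_KO_canertinib (4.66%). Cxcl9 passed 2-fold downward in each of the 4 arms.

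The genes with the pattern most like a member's were found by Pearson's r of the log2 signal over the 16 arrays, centred within the array sets. These values are a description over arrays that share arms, days and sets, and several rest on the MET_KO_canertinib array of day 14. Cxcl1 was closest to Gadd45g (r = 0.92), a stress-response gene, and Socs3 (r = 0.91), an inhibitor of cytokine signalling, and within the 6 low-set arrays alone r was 0.92 and 0.79. Cxcl2 was closest to Slc10a6 (0.94) and Cobl (0.91), but within the 6 low-set arrays, where Cxcl2 spanned only 62.8 to 94.5, r was 0.55 and 0.26. Cxcl9 was closest to the interferon-induced Ifit1 (0.92) and Irgm2 (0.90), with 0.95 and 0.97 in the low set and 0.90 and 0.84 in the high set. Ccl6 was closest to the adhesion molecule gene Icam1 (0.93) and to Ms4a8a (0.92), and Cxcl14 to Sema3f (0.86) and the matrix metalloproteinase gene Mmp14 (0.85). Socs3 was highest at 4798 and Icam1 at 2054, both in MET_KO_canertinib at day 14, while Ifit1 was highest at 3109 in MET_KO_canertinib at day 0.

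The closest genes of the remaining members were Nubpl (0.89) and Galnt11 (0.86) for Cxcl10, Plxnb2 (0.90) and Cdc5l (0.88) for Cxcl12, and Impdh1 (0.88) and 6330409D20Rik (0.86) for Cxcl13. For Ccl2 they were Gm12992 (0.87) and Plaat3 (0.82), and for Ccl5 Strada (0.87) and Fabp3 (0.86). In Galnt11 the low set gave r = -0.04 and the high set 0.93, so that likeness lay in the 10 high-set arrays.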

How the data were processed

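Liver RNA of 16 mouse arrays, 1 for each of 4 arms at days 0, 2, 7 and 14, was used. The deposited values are signal intensity per probe set from MAS5, per the submitters' processing notes, and 6 ug of total RNA was labelled for each array per the labels' protocols. No source used here gives the version of MAS5. With the top and bottom 2% trimmed, the mean intensity was 500 in each array, which is how the deposited values are scaled. Of 45101 probe sets, 64 controls were left out, and 34945 with a single gene in the platform annotation were used (932 named several, 9160 none). Probe sets above their own array's median on at least 4 of 16 arrays were kept, and the one with the highest mean log2 stood for its gene.

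The log2 of intensity plus 16 was fitted in limma 3.58.1 (R 4.3.3) on arm plus day, with an intensity trend, 9 residual degrees of freedom, two-sided tests and Benjamini-Hochberg adjustment over 13575 genes. The array set, parted at a median of 216.35, was a further term in an alternative with 8 residual degrees of freedom. The fit was tested on data simulated with independent noise around the arm and day terms. These data held no array set, so they cannot show how the fit behaves with one. Replicate arrays do not exist, and the number of arrays limits the precision. The genes named are the 10 members, up to 4 called genes in each direction from each list, the members' receptors, and the 2 genes most like each member. The members and lists were chosen with earlier results of these data known. The alternatives were other scalings, pseudocounts of 1 and 64, no filter, other choices of probe set, no trend, and leaving out each array in turn. Other choices of probe set include the linear mean and a fit of every probe set, both added after the data were seen.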

Additional observations from a re-analysis of the deposited data

How the results depend on the processing

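Over 9 alternative settings the 110 differences of single members changed sign in no called result, and 12 calls were lost while 3 were gained. In the canertinib comparison 1 member, Cxcl2, was called with a pseudocount of 1, without the filter, with the mean over a gene's probe sets, without the trend and with the probe set of highest linear mean, and 0 with the array set. Between MET_KO_canertinib and MET_KO 2 members were called with arrays centred, Cxcl2 higher and Cxcl12 lower, and 0 after quantile normalization (Cxcl2 at 1.89, adjusted p = 0.0845) or with the array set. Between MET_KO_canertinib and MET_FLOX 0 were called under both of these settings. At day 14 the array set gave 1 call, Cxcl14. Leaving out each array in turn gave 1 to 2 calls with canertinib, 0 to 2 between MET_KO_canertinib and MET_KO, 0 to 1 between MET_KO_canertinib and MET_FLOX, 0 to 1 between MET_FLOX_canertinib and MET_FLOX and 0 to 1 at day 14. Downward changes past 2-fold at day 2 numbered 1 in MET_KO with centring and quantile normalization and 1 in MET_FLOX with a pseudocount of 64. Upward ones numbered 2 in MET_KO with a pseudocount of 64, with probe set means and with linear means, and in MET_KO_canertinib 6 with probe set means and 4 with linear means. The cause of these changes was not tested. Every fit has day as a term and so compares arms within days. No paired analysis was possible because the labels give no replicate number, beyond this matching by day. Cxcl2 and Cxcl9 lay below the array median on 11 of 16 arrays, which limits the precision of their low signals.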
